A study of Homo with 2 samples.

Results

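The genes described are 10 genes of the bone morphogenetic protein (BMP) response: ID1, ID2, ID3, ID4, SMAD6, SMAD7, SMAD9, BMP4, MSX1 and MSX2. They were taken by symbol from the count tables of 2 single-cell RNA libraries, where all 10 were present among the 25556 genes that both tables hold. Of 4589 barcodes, 2456 had 1000 or more detected genes and a mitochondrial share of UMIs of 20% or less, and the genes were followed across these cells. A UMI, or unique molecular identifier, marks a single captured transcript.

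Both libraries came from 1 group of human blastoids, cell aggregates that resemble the blastocyst, grown from the established embryonic stem cell line KhES1. According to the labels, dissociated cells were aggregated for 24 h in microwells in high-glucose DMEM with 10% fetal bovine serum and 10 µM Y27632, a ROCK inhibitor. They were then kept for 4 days in a PNIPAAm-PEG hydrogel under the same medium. There is a single line and no untreated or BMP-inhibited group, so the comparisons are between classes of cells inside these libraries. Nothing in the labels says whether these are separate cultures. The main test takes library as a block, so a general difference between the libraries is removed from its p-values. These p-values rest on the counting error of UMIs and on how far differences between groups of cells vary from library to library. The fit shares this spread across genes and groups of cells. In any fit, the spread between the libraries may be technical.

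BMP ligands bind pairs of type I and type II receptor kinases on the cell surface, which phosphorylate SMAD1, SMAD5 and SMAD9. These enter the nucleus with SMAD4 and switch on the ID genes, MSX1, MSX2 and the inhibitory SMAD6 and SMAD7, which feed back on the pathway. In culture, BMP4 turns human pluripotent stem cells towards trophoblast-like and amnion-like cells, and in the mouse embryo it is needed for the primitive streak and mesoderm. Only transcripts were measured here, not SMAD phosphorylation.

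The tables summed to 38665475 UMIs in library 1 (1988 barcodes) and 45208758 UMIs in library 2 (2601 barcodes). The filter left 937 and 1519 cells, with medians of 35059 and 25116 UMIs. The libraries shared 1 barcode, and none that passed the filter. Clusters built without these genes or other BMP pathway genes gave a trophectoderm/amnion-like class (1675 cells in clusters 0, 1 and 4), an epiblast-like class (131 cells) and a syncytiotrophoblast-like cluster (92 cells). Each trophectoderm/amnion-like cluster had at least 12 of 14 markers at 10 CPM or more, and the epiblast-like class had 11 of 12. None of their markers stood among the 10 leading genes, which were PDE4B and TP63 in cluster 0, RELN and STMN2 in cluster 1, TOP2A and MKI67 in cluster 4, and MIR302CHG and GAL in the epiblast-like class. The remaining clusters were shallow, with medians of 2679 to 4421.5 UMIs in the larger 2, and stayed unnamed.

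The 4 ID proteins are helix-loop-helix proteins without a DNA-binding region, which bind E proteins and keep them off DNA. In RefSeq's GRCh38 annotation ID1 lies at chr20:31605289-31606510, ID2 at chr2:8682056-8684461, ID3 at chr1:23557926-23559501 and ID4 at chr6:19837370-19842197. Levels are given as CPM, the UMIs of a gene scaled to a total of 1000000 UMIs, and since each transcript gives a single UMI from its 3′ end, gene length does not enter. Over all cells, ID1 stood at 337 CPM in library 1 and 367 CPM in library 2 (352 ± 21.1, SD, n = 2). ID2 followed at 172 and 186 CPM (179 ± 9.45), and ID3 at 99.5 and 131 CPM (115 ± 22.3). ID4, at 70.8 and 76.3 CPM (73.5 ± 3.87), was the lowest of the ID genes in both libraries.

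MSX1 (chr4:4859665-4863936) and MSX2 (chr5:174724582-174730896) encode homeobox transcription factors. MSX2 was at 87.0 and 89.6 CPM (88.3 ± 1.88), between ID3 and ID4, whereas MSX1 was at 12.8 and 16.4 CPM (14.6 ± 2.56). The ligand gene BMP4 (chr14:53949736-53956891) was at 27.4 and 25.1 CPM (26.3 ± 1.64). SMAD6, an inhibitor mainly of the BMP branch, was at 25.6 and 24.5 CPM (25.1 ± 0.79). SMAD9, a receptor-activated SMAD of that branch, was at 19.99 and 20.4 CPM (20.2 ± 0.31). SMAD7, which inhibits both the BMP and the TGF-beta branch, was lowest at 12.5 and 11.8 CPM (12.1 ± 0.53). The 10 genes kept the same order in both libraries. BMP4 and SMAD6 differed by less than the SD of BMP4, and MSX1 and SMAD7 by less than the SD of MSX1, so the order within these pairs is not resolved.

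**Figure D1:**
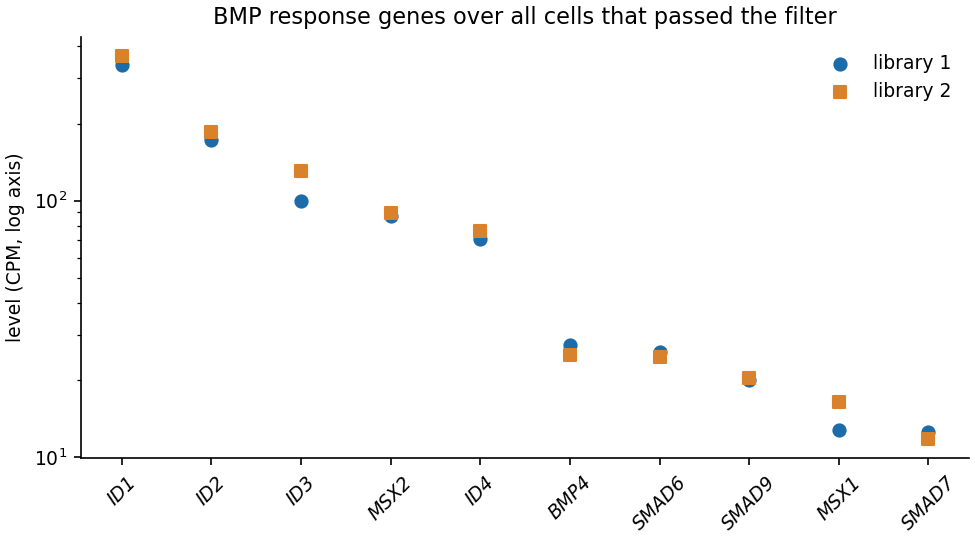
Level of each of the 10 genes over all cells that passed the filter (vertical axis, CPM on a log axis), with a circle for library 1 and a square for library 2. ID1 is highest at 337 and 367 CPM, SMAD7 lowest at 12.5 and 11.8 CPM, and the symbols of BMP4 and SMAD6 cannot be separated.

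The genes differed in how many cells shared their UMIs. After every cell was thinned to 5000 UMIs, which kept 827 cells of library 1 and 1138 of library 2, an ID1 UMI was found in 66.7% of cells (95% exact interval 63.4 to 69.9) and 69.8% (67.0 to 72.4). ID2 was found in 51.0% and 49.6% of thinned cells, and these were the only members past 50% on average over the libraries. ID3, ID4 and MSX2 lay between 26.6% and 32.8%, and the SMAD genes and BMP4 between 4.92% and 11.1%. MSX1 was found in 3.75% (2.56 to 5.28) and 4.57% (3.43 to 5.95). Without thinning, ID1 was found in 87.8% and 78.9% of cells and MSX1 in 15.4% and 12.5%. These intervals cover counting error only, and the background of free RNA was not measured.

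MSX1 was the most unevenly spread of the 10. The tenth of cells with the most MSX1 UMIs held 89.6% of them in library 1 and 94.7% in library 2. The same share was 58.6% and 65.6% for ID3 and 38.1% and 45.3% for ID1. Single cells reached 332 MSX2 UMIs in library 1 and 282 ID1 UMIs in library 2.

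The first comparison set the trophectoderm/amnion-like class against the epiblast-like class. UMIs were divided at random between clustering and measurement, and all class levels below come from the measurement set unless stated. ID3 and MSX1 were several-fold lower in trophectoderm/amnion-like cells, ID4 and BMP4 were lower by less than 2-fold, and SMAD9 was higher. By the edgeR quasi-likelihood test with Benjamini-Hochberg adjustment over 13033 genes, 1 of the 10 genes was called higher and 4 lower. Of all genes tested, 39.6% were called, 19.5% higher and 20.1% lower, so the number of members called is close to this background. The median log2 fold change was -0.43 for the members and -0.00 for all genes tested.

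ID3 was at 76.0 and 92.5 CPM in trophectoderm/amnion-like cells, against 358 and 399 CPM in epiblast-like cells. The summed levels did not overlap, and ID3 was 4.30-fold lower in trophectoderm/amnion-like cells (log2 fold change -2.10, SE 0.23, edgeR adjusted p = 1.52e-07). Single cells of the 2 classes did overlap. Over all UMIs, the upper quartile of trophectoderm/amnion-like cells was at 92.8 and 121 CPM. The lower quartile of epiblast-like cells was at 70.9 and 44.5 CPM. An ID3 UMI was present in 23.2% and 28.3% of thinned trophectoderm/amnion-like cells, against 57.4% and 54.2% of thinned epiblast-like cells. ID4 was at 65.7 and 74.9 CPM in trophectoderm/amnion-like cells, against 121 and 107 CPM in epiblast-like cells. The summed levels did not overlap (log2 fold change -0.63, SE 0.19, edgeR adjusted p = 0.0107). With every cell given equal weight, however, ID4 averaged 62.7 and 72.2 CPM in trophectoderm/amnion-like cells, against 116 and 70.2 CPM in epiblast-like cells, and library 2 showed no deficit.

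ID1 and ID2, the most abundant members, did not pass the test between these classes. ID1 was at 328 and 370 CPM in trophectoderm/amnion-like cells, against 448 and 384 CPM in epiblast-like cells (log2 fold change -0.19, 95% interval -0.64 to 0.26, edgeR adjusted p = 0.557). ID2 was at 162 and 174 CPM in trophectoderm/amnion-like cells, against 211 and 235 CPM in epiblast-like cells (log2 fold change -0.34, 95% interval -0.77 to 0.08, edgeR adjusted p = 0.223). The make-up of the ID family therefore differed. ID3 supplied 12.04% and 13.01% of all ID1 to ID4 UMIs in trophectoderm/amnion-like cells, against 31.5% and 35.5% in epiblast-like cells. ID1 supplied 51.9% and 52.0%, against 39.3% and 34.1%.

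MSX1 was at 7.14 and 6.01 CPM in trophectoderm/amnion-like cells, against 67.6 and 87.0 CPM in epiblast-like cells. It was 11.3-fold lower in trophectoderm/amnion-like cells, the largest difference among the 10 genes (log2 fold change -3.50, SE 0.24, edgeR adjusted p = 2.58e-10). Its paralogue MSX2 did not pass the test, at 71.1 and 77.2 CPM in trophectoderm/amnion-like cells, against 69.4 and 88.3 CPM in epiblast-like cells (log2 fold change -0.04, 95% interval -0.49 to 0.41, edgeR adjusted p = 0.913). MSX1 thus gave 9.13% and 7.22% of the MSX1 and MSX2 UMIs in trophectoderm/amnion-like cells, against 49.3% and 49.6% in epiblast-like cells.

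Among the signalling members, SMAD9 was at 21.6 and 23.0 CPM in trophectoderm/amnion-like cells, against 7.92 and 10.6 CPM in epiblast-like cells. It was 2.51-fold higher in trophectoderm/amnion-like cells (log2 fold change 1.33, SE 0.34, edgeR adjusted p = 0.00335), on 39 epiblast-like UMIs. The ligand BMP4 was at 25.7 and 24.3 CPM in trophectoderm/amnion-like cells, against 43.2 and 36.0 CPM in epiblast-like cells. Its summed levels did not overlap, and it passed the threshold narrowly (log2 fold change -0.58, SE 0.22, edgeR adjusted p = 0.0376). This call was lost in 6 of the alternatives, among them the DESeq2 Wald test at an adjusted p of 0.139.

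SMAD6 did not pass the test, at 27.9 and 25.9 CPM in trophectoderm/amnion-like cells, against 28.0 and 30.6 CPM in epiblast-like cells (log2 fold change -0.07, 95% interval -0.49 to 0.36, edgeR adjusted p = 0.840). SMAD7 was at 10.5 and 11.8 CPM in trophectoderm/amnion-like cells, against 12.2 and 20.4 CPM in epiblast-like cells (log2 fold change -0.52, 95% interval -1.19 to 0.14, edgeR adjusted p = 0.240). SMAD7 was called lower in 2 alternatives, at an edgeR adjusted p of 0.0138 with another random split of the UMIs and of 0.0108 with doublet calls kept.

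Parts of the epiblast-like class differed in these genes. Re-clustering gave 4 sub-clusters, of which 3 had at least 10 cells in both libraries. A SOX2-high sub-cluster (43 cells, 10 and 33 by library) was led by genes that include FGF4, NODAL and GDF3. It is named as the highest in SOX2 of these 3, with a pooled SOX2 level of 109 CPM in the clustering set, whereas the sub-cluster left untested had 220 CPM. Its TBXT level there was 68.5 CPM. A TBXT-high sub-cluster (28 cells, 14 and 14) was led by RSPO3 and CDH11. Its 10 leading genes included MESP1, MSGN1 and LHX1, genes of the primitive streak and early mesoderm. On markers alone this sub-cluster would be named primitive streak and early mesoderm-like. Its pooled levels in the clustering set were 4.04 CPM for SOX2 and 384 CPM for POU5F1. A GATA3-high sub-cluster (39 cells, 19 and 20) was led by genes that include KRT7 and GATA3, and held 13 of 14 trophectoderm/amnion markers at 10 CPM or more. On markers alone it would be named trophectoderm/amnion-like, yet its pooled POU5F1 level in the clustering set was 583 CPM, against 810 CPM in the SOX2-high sub-cluster. POU5F1 encodes a core pluripotency factor. The GATA3-high cells had medians of 82226 and 53275.5 UMIs, against 56498 and 50960 in SOX2-high cells, and were the deepest of the class in library 1 only. The part that depth or undetected doublets have in the results on them was not tested.

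In the GATA3-high sub-cluster, 7 members were higher than in the SOX2-high sub-cluster: ID1, ID2, ID3, ID4, SMAD6, SMAD9 and MSX2. None was called lower by edgeR, and at an unadjusted p under 0.05 there were 8, all higher. Over all 13433 genes tested, 7.5% were called, 5.08% higher and 2.42% lower. The median log2 fold change was 1.42 for the members, against 0.05 for all genes.

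ID4 stood out, at 189 and 209 CPM in GATA3-high cells, against 45.2 and 36.7 CPM in SOX2-high cells (log2 fold change 2.49, SE 0.25, edgeR adjusted p = 1.44e-07). ID1 was at 670 and 620 CPM in GATA3-high cells, against 167 and 214 CPM in SOX2-high cells (log2 fold change 1.87, SE 0.23, edgeR adjusted p = 1.87e-06). MSX2 was at 102 and 154 CPM in GATA3-high cells, against 27.8 and 39.2 CPM in SOX2-high cells (log2 fold change 1.97, SE 0.34, edgeR adjusted p = 2.21e-04). For each of these the summed levels of the sub-clusters were far apart in both libraries. In summed levels, GATA3-high cells also lay above every trophectoderm/amnion-like cluster for ID1, ID2 and ID4. Those clusters spanned 295 to 414, 142 to 228 and 50.7 to 98.7 CPM. In the median cell of library 2, over all its UMIs, this did not hold for ID1 and ID2. Median ID1 there was 288 CPM in GATA3-high cells, against 373 CPM in cluster 0, 245 CPM in cluster 1 and 305 CPM in cluster 4. Median ID2 was 123 CPM in GATA3-high cells, against 162, 100 and 135 CPM in these clusters. For MSX2 the summed GATA3-high levels overlapped cluster 0 of library 2, at 107 CPM. These differences from the trophectoderm/amnion-like clusters were not tested.

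ID2 was at 279 and 318 CPM in GATA3-high cells, against 139 and 186 CPM in SOX2-high cells (log2 fold change 0.97, edgeR adjusted p = 0.00479). ID3 was at 314 and 426 CPM in GATA3-high cells, against 208 and 260 CPM in SOX2-high cells (log2 fold change 0.78, edgeR adjusted p = 0.0242). ID3 had the smallest of the 7 differences, and its edgeR adjusted p was 0.0578 in the fit without the library block. SMAD6 was at 33.2 and 47.8 CPM in GATA3-high cells, against 13.9 and 6.32 CPM in SOX2-high cells (log2 fold change 2.38, edgeR adjusted p = 6.71e-04), on 9 SOX2-high UMIs. SMAD9 rested on 26 UMIs in GATA3-high cells and 2 in SOX2-high cells (edgeR adjusted p = 0.0344), too few to size its fold.

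Within the GATA3-high sub-cluster the levels were uneven from cell to cell. The median cell had 648 CPM of ID1 in library 1 and 288 CPM in library 2, against 197 and 129 CPM in SOX2-high cells. The highest single cell carried 13.6% and 23.1% of the ID1 UMIs of GATA3-high cells. Without the highest cell of each sub-cluster, ID1 was at 642 and 572 CPM in GATA3-high cells, against 160 and 214 CPM in SOX2-high cells. For MSX2 a single cell of library 2 carried 40.1% of the UMIs, and without the highest cells the levels were 81.7 and 110 CPM, against 26.8 and 36.1 CPM. All 7 genes called also had the higher level in GATA3-high cells of both libraries when cells were weighted equally, a check chosen after the data were seen. For ID3 that difference was small, at 248 and 258 CPM in GATA3-high cells, against 185 and 217 CPM in SOX2-high cells. By the median cell, over all UMIs, ID3 was not higher in GATA3-high cells. It was at 117 and 61.3 CPM, against 118 and 145 CPM in SOX2-high cells. Median ID2 was higher in library 1 (251 against 112 CPM) but not in library 2 (123 against 137 CPM). Median ID1, ID4, SMAD6 and MSX2 were higher in both libraries. The highest single cell held 24.7% and 24.3% of the ID3 UMIs of GATA3-high cells.

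In the TBXT-high sub-cluster, a different set of 4 members was higher than in the SOX2-high sub-cluster: ID3, MSX1, BMP4 and SMAD6. None was called lower by edgeR, and at an unadjusted p under 0.05 there were 5, all higher. Over all genes, 4.82% were called, 2.44% higher and 2.37% lower. The GATA3-high and TBXT-high comparisons share the SOX2-high cells as their reference, and the difference between the comparisons was not tested.

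MSX1 was at 158 and 309 CPM in TBXT-high cells, against 24.3 and 36.7 CPM in SOX2-high cells (log2 fold change 2.82, SE 0.36, edgeR adjusted p = 7.29e-06). ID3 was at 567 and 584 CPM in TBXT-high cells, against 208 and 260 CPM in SOX2-high cells (log2 fold change 1.29, SE 0.22, edgeR adjusted p = 3.30e-04). BMP4 was at 87.0 and 68.9 CPM in TBXT-high cells, against 31.3 and 19.0 CPM in SOX2-high cells (log2 fold change 1.76, SE 0.42, edgeR adjusted p = 0.00907). The summed levels of all 3 were separated in both libraries. TBXT-high cells had the highest summed level of each among the clusters and sub-clusters plotted. SMAD6 was at 34.3 and 44.1 CPM in TBXT-high cells, against 13.9 and 6.32 CPM in SOX2-high cells (log2 fold change 2.19, edgeR adjusted p = 0.00941), on 9 SOX2-high UMIs. Over all UMIs, the highest TBXT-high cell held 30.4% and 37.3% of the BMP4 UMIs and 18.2% and 43.75% of the SMAD6 UMIs. Without the highest cell of each sub-cluster, BMP4 was at 57.8 and 47.8 CPM, against 19.5 and 14.6 CPM in SOX2-high cells. SMAD6 was then at 26.1 and 27.3 CPM, against 15.6 and 5.96 CPM. A BMP4 UMI was present in 7.69% and 28.6% of thinned TBXT-high cells, against 10.0% and 3.03% of thinned SOX2-high cells.

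The other ID genes did not pass the test in TBXT-high cells. ID1 was at 235 and 287 CPM in TBXT-high cells, against 167 and 214 CPM in SOX2-high cells (log2 fold change 0.43, 95% interval -0.05 to 0.91, edgeR adjusted p = 0.430). ID2 was at 108 and 138 CPM in TBXT-high cells, against 139 and 186 CPM in SOX2-high cells (log2 fold change -0.44, 95% interval -0.95 to 0.07, edgeR adjusted p = 0.452). ID4 was at 58.0 and 57.9 CPM in TBXT-high cells, against 45.2 and 36.7 CPM in SOX2-high cells (log2 fold change 0.58, 95% interval -0.08 to 1.25, edgeR adjusted p = 0.444). SMAD9 missed the threshold at an edgeR adjusted p of 0.203 but passed it, at 0.0284, when all UMIs were used.

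The fourth sub-cluster (21 cells, 5 and 16 by library) had too few cells in library 1 for the test. ID3 was at 365 and 449 CPM in it and MSX1 at 45.6 and 68.2 CPM, and both lay between the SOX2-high and the TBXT-high levels. ID4 was at 38.0 and 39.8 CPM, close to the SOX2-high level. Over all UMIs, the highest cell of this sub-cluster held 80.0% and 51.4% of its MSX1 UMIs. For ID3 that share was 43.3% and 37.7%. Without the highest cell of each sub-cluster, MSX1 was at 9.53 and 27.6 CPM, against 15.8 and 21.1 CPM in SOX2-high cells. In library 1 MSX1 then lay below the SOX2-high level. ID3 was then at 243 and 276 CPM, against 158 and 227 CPM in SOX2-high cells.

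**Figure D2:**
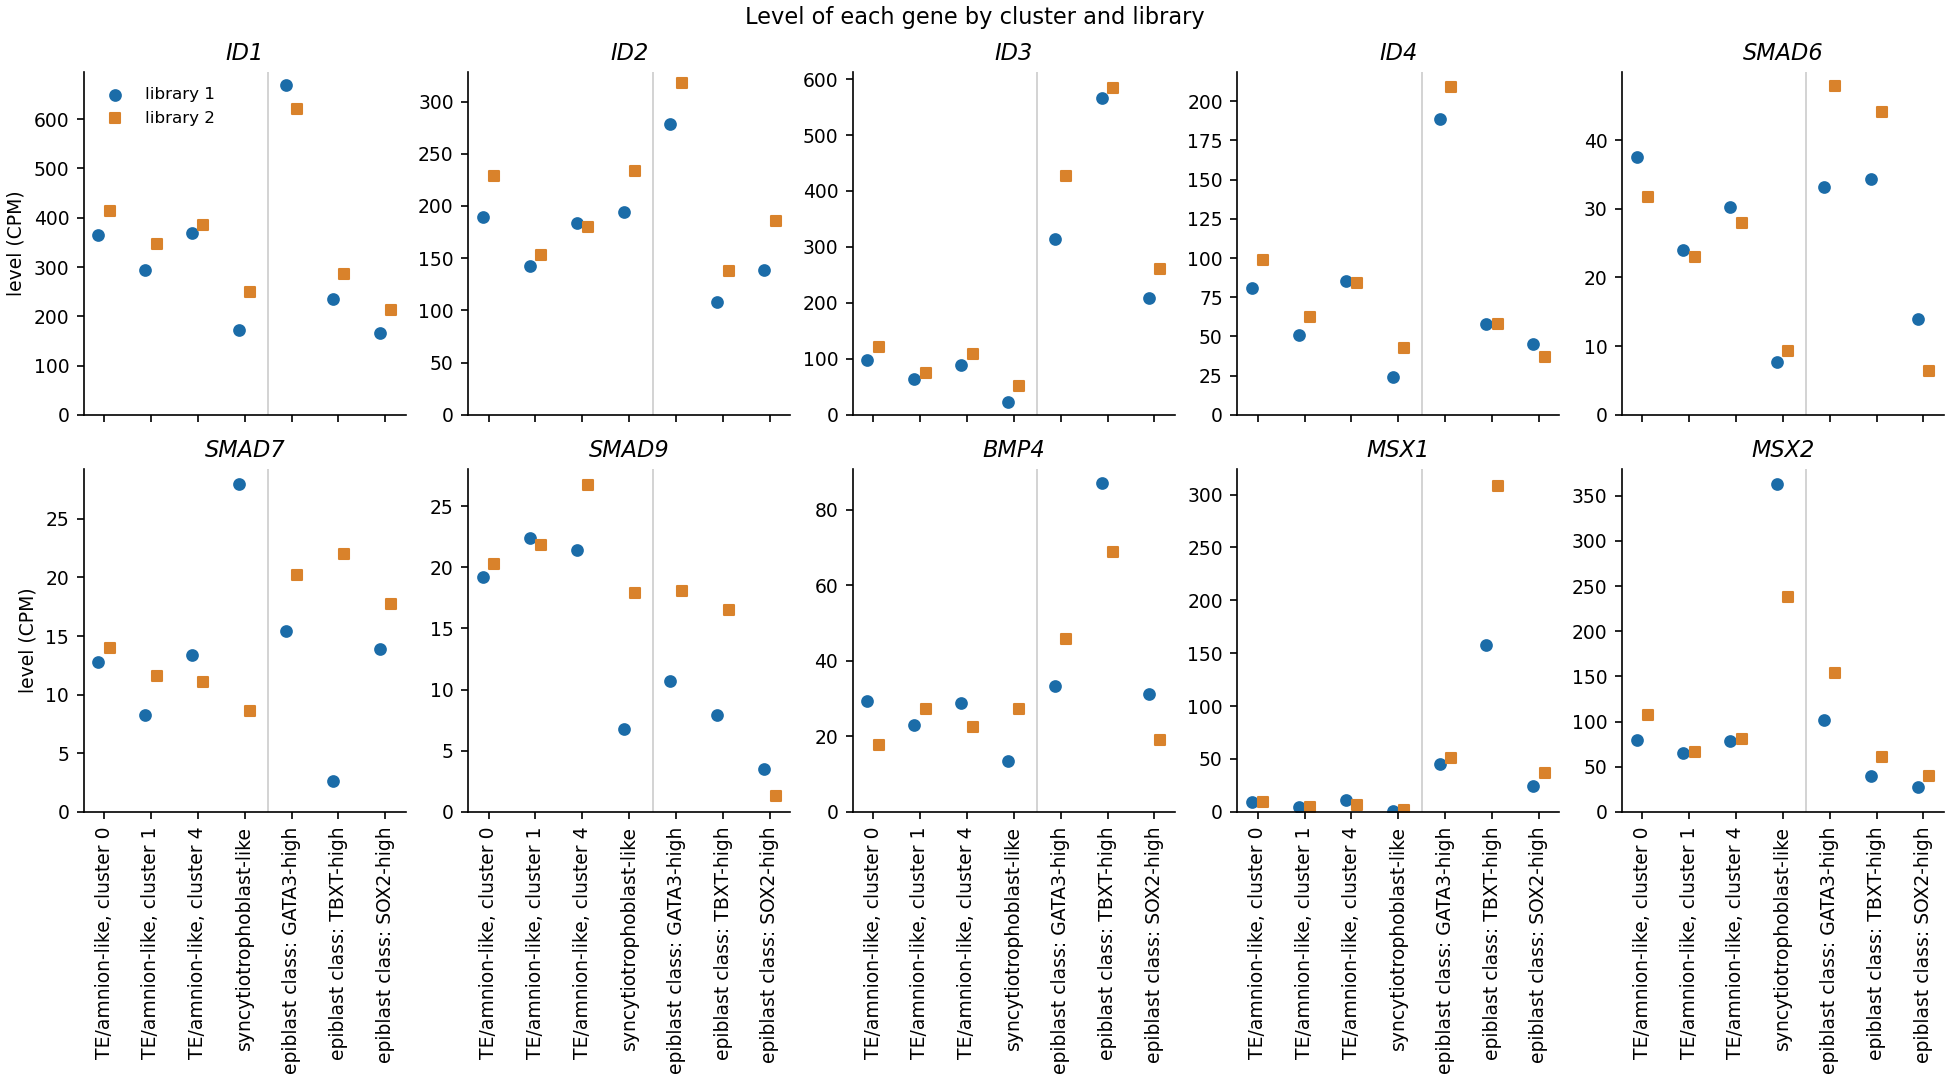
Level of each gene (vertical axis, CPM, a separate scale per gene) in 4 clusters and, right of the line, 3 sub-clusters of the epiblast-like class, with a circle for library 1 and a square for library 2. ID1, ID2 and ID4 peak in the GATA3-high sub-cluster, ID3, MSX1 and BMP4 in the TBXT-high sub-cluster, and MSX2 in the syncytiotrophoblast-like cluster.

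The ID family had a different make-up in each of these sub-clusters. ID3 supplied 21.7% (95% exact interval 19.4 to 24.1) and 27.1% (24.8 to 29.4) of ID1 to ID4 UMIs in GATA3-high cells. It supplied 58.6% (53.3 to 63.7) and 54.8% (49.7 to 59.8) in TBXT-high cells and 37.3% (29.8 to 45.2) and 37.4% (33.3 to 41.6) in SOX2-high cells. MSX1 supplied 30.6% and 24.9% of the MSX1 and MSX2 UMIs in GATA3-high cells, 80.0% and 83.6% in TBXT-high cells and 46.7% and 48.3% in SOX2-high cells.

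**Figure D3:**
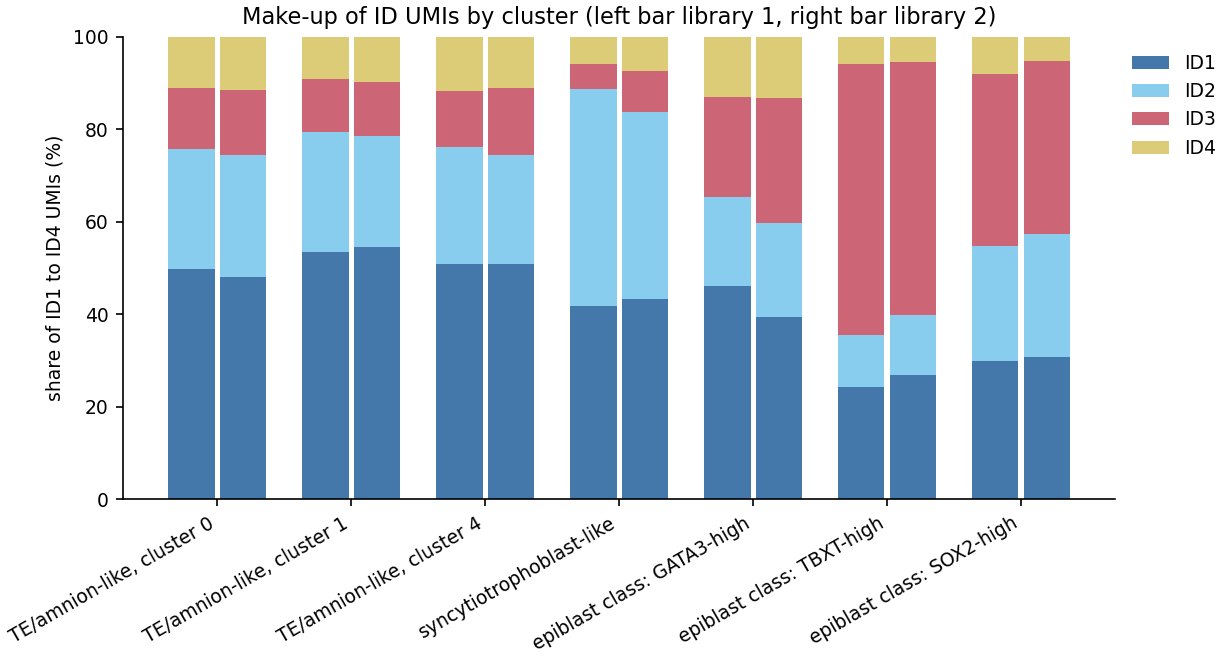
Share of ID1, ID2, ID3 and ID4 in the summed ID UMIs (vertical axis, percent) for 4 clusters and 3 sub-clusters of the epiblast-like class, with library 1 as the left bar and library 2 as the right bar. ID3 takes 58.6% and 54.8% of the TBXT-high bars, against 5.37% and 8.78% of the syncytiotrophoblast-like bars.

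The sub-clusters contributed unequally to the class. GATA3-high cells were 39.6% and 24.1% of epiblast-like cells and gave 51.3% and 38.5% of all UMIs of the class, but 79.9% and 75.5% of its ID4 UMIs. They gave 76.9% and 62.2% of its ID1 UMIs and 75.4% and 67.1% of its MSX2 UMIs. TBXT-high cells were 29.2% and 16.9% of the class and gave 54.1% and 52.6% of its MSX1 UMIs.

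The comparison of the trophectoderm/amnion-like class with the epiblast-like class changed accordingly. Without the GATA3-high cells, ID4 was higher in trophectoderm/amnion-like cells (log2 fold change 0.74, edgeR adjusted p = 0.0110), the opposite direction to that with them. ID1 (0.75, edgeR adjusted p = 0.0132) and MSX2 (0.91, edgeR adjusted p = 0.00607) were then also called higher, beside SMAD9. ID3 and MSX1 were called lower with or without either sub-cluster. Without the TBXT-high cells, the log2 fold change of MSX1 was -2.73 and that of BMP4 was -0.21, the second no longer called (edgeR adjusted p = 0.535).

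**Figure D4:**
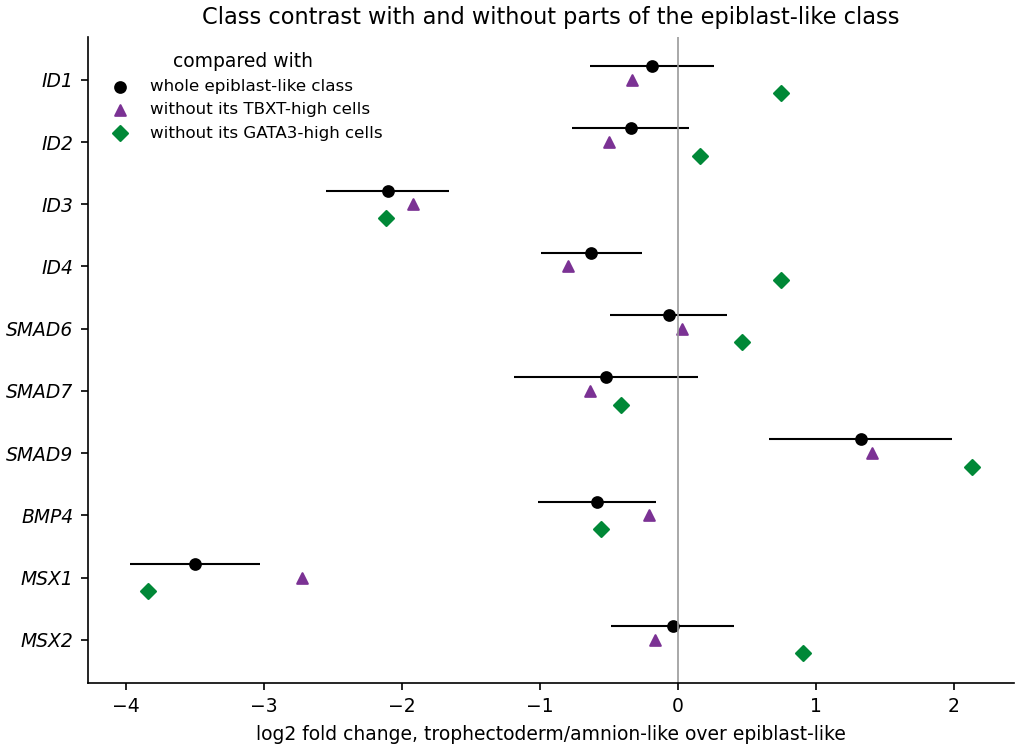
Log2 fold change of each gene, trophectoderm/amnion-like over epiblast-like (horizontal axis), with the whole epiblast-like class (circles, with 95% intervals), without its TBXT-high cells (triangles) and without its GATA3-high cells (diamonds). Without GATA3-high cells ID1, ID4 and MSX2 move to the right of 0, at 0.75, 0.74 and 0.91. ID2 also moves there, at 0.16, without being called, while ID3 and MSX1 stay left of 0.

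Within the trophectoderm/amnion-like class, each cluster was compared with the mean of the others, and members were called only in cluster 1. Cluster 1, the largest with 915 cells, was lower than the mean of clusters 0 and 4 in ID4, ID3 and MSX1. No member was called higher by edgeR, and at an unadjusted p under 0.05 there were 5, all lower. Over all genes 9.39% were called in this comparison, 6.02% higher and 3.38% lower. ID4 was at 50.7 and 62.3 CPM in cluster 1, against 81.0 and 98.7 CPM in cluster 0 and 85.4 and 83.9 CPM in cluster 4 (log2 fold change -0.57, SE 0.14, edgeR adjusted p = 0.00671). ID3 was at 63.0 and 74.1 CPM in cluster 1, against 97.2 and 121 CPM in cluster 0 and 88.9 and 109 CPM in cluster 4 (log2 fold change -0.53, edgeR adjusted p = 0.0476). Both genes were lower in cluster 1 than in either other cluster of the same library. ID3 was no longer called with DESeq2 size factors, at an edgeR adjusted p of 0.0631.

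MSX1 was low throughout the class, at 4.20 and 4.68 CPM in cluster 1, against 9.38 and 9.42 CPM in cluster 0 and 11.4 and 6.44 CPM in cluster 4 (log2 fold change -0.97, edgeR adjusted p = 0.0445). No member was called in cluster 0 or in cluster 4 by edgeR, where 4.56% (1.21% higher, 3.36% lower) and 4.59% (3.85% higher, 0.744% lower) of all genes were called. At an unadjusted p under 0.05 there was 1 member in cluster 0 and 0 in cluster 4. Cluster 4 was led by cell cycle genes such as TOP2A and MKI67.

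The syncytiotrophoblast-like cluster had 24 cells in library 1 and 68 in library 2, and its levels are given without a test. Only 4 of its listed markers were present in both libraries, and all 4 were at 10 CPM or more. The rest of the marker list was missing from the counts of at least 1 library, where each gene is in at least 2 barcodes. The name therefore rests on part of its list, and the missing markers do not count in its favour. Among its 10 leading genes 1 was a listed marker, CYP19A1, and PGF and HOPX, which are not on the list, were others. Its median depth was 67694.5 UMIs in library 1 and 12196.5 in library 2, so the libraries differ in these cells. MSX2 was at 363 and 238 CPM, above every other cluster and sub-cluster plotted. In library 1 a single cell held 46.6% of the MSX2 UMIs, and without the highest cell of each library the levels were 202 and 218 CPM.

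ID1 was at 173 and 250 CPM in syncytiotrophoblast-like cells and ID2 at 194 and 234 CPM. ID3, at 22.2 and 50.7 CPM, and ID4, at 24.1 and 42.9 CPM, were below their levels in every trophectoderm/amnion-like cluster of the same library. MSX1 had 1 UMI in library 1 and 2 in library 2. SMAD7 was at 28.0 and 8.58 CPM, but a single cell held 81.7% of its UMIs in library 1.

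Pairs of members were also counted in single cells after thinning to 5000 UMIs, as a description. Of 45 pairs, 5 were found together in more cells than the product of their single shares in both libraries, with the product below the 95% exact interval. No pair was below it in both libraries. ID1 and ID2 shared 38.7% and 38.2% of cells, where the products were 34.1% and 34.6%. ID3 was in the other 4 pairs, with ID1, ID2, ID4 and MSX1. ID3 and ID4 shared 10.6% and 11.3% of cells, where the products were 7.63% and 8.73%, and ID3 and MSX1 shared 1.93% and 2.55%, where the products were 1.06% and 1.498%. Inside the trophectoderm/amnion-like class alone, 3 pairs were above the product in both libraries: ID1 with ID2, ID1 with ID3, and ID2 with MSX2. ID2 with MSX2 was not among the 5 pairs over all cells.

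The genes most like each member in pattern were taken from 16508 genes, by Pearson's r of log2(CPM + 1) over 18 points. The points are clusters and sub-clusters in each library, so they share libraries and cells and differ in depth. ID3 and MSX1 were most like each other (r = 0.95, and 0.97 over the 14 points of deeper clusters). Next were CCNB1IP1 for ID3 (0.95) and CXXC5 for MSX1 (0.94). MSX2 was most like CEBPB (0.90) and PEG10 (0.88), ID1 like ITM2B (0.86) and CRYM (0.80), ID2 like ZNF658 (0.82) and GRHL3 (0.81), and ID4 like MIR205HG (0.87) and KCNK13 (0.84). The closest genes to BMP4 (INO80C, 0.94) and SMAD6 (ZSCAN26, 0.91) came down to 0.71 and 0.75 without the shallow clusters. ZNF658 for ID2 came down to 0.71. SMAD7 was most like CNNM4 (0.85) and SMAD9 like CCNY-AS1 (0.91), which came down to 0.75 and 0.82.

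The rest of the pathway was described from lists of 55 genes by role, of which 39 could be tested between the trophectoderm/amnion-like and the epiblast-like class. Of these, 14 were called higher and 9 lower by edgeR, which is 59.0% called beside 39.6% of all genes. Among ligands, 2 of 6 tested were higher and 2 lower. GDF6, a BMP-family ligand, was at 102 and 104 CPM in trophectoderm/amnion-like cells, against 9.14 and 2.86 CPM in epiblast-like cells (log2 fold change 4.31, edgeR adjusted p = 4.72e-10). In trophectoderm/amnion-like cells GDF6 thus stood above BMP4. BMP7 was lower, at 25.95 and 22.9 CPM in trophectoderm/amnion-like cells, against 50.6 and 37.2 CPM in epiblast-like cells, as was BMP2 (5.51 and 5.17 CPM, against 12.2 and 10.6 CPM).

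Among receptors and co-receptors, 3 of 8 were higher and 3 lower. The type II receptor ACVR2A was at 111 and 105 CPM in trophectoderm/amnion-like cells, against 36.5 and 41.3 CPM in epiblast-like cells. The type I receptor BMPR1A was lower, at 206 and 192 CPM in trophectoderm/amnion-like cells, against 432 and 444 CPM in epiblast-like cells. The co-receptors RGMA and RGMB were lower too (log2 fold change -1.64 and -1.50), and BMPR2 was not called. Of 7 transducers and intracellular regulators, none was called higher by edgeR and 1 lower. That gene was SKIL, a SMAD co-repressor, at 83.3 and 75.1 CPM in trophectoderm/amnion-like cells, against 147 and 134 CPM in epiblast-like cells. SMAD1, SMAD5 and SMAD4, which carry the signal, were not called, and the ubiquitin ligase gene SMURF1 missed the threshold (edgeR adjusted p = 0.0524).

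Among extracellular modulators, 3 of 7 tested were higher and 2 lower, out of 16 listed. FSTL1, a secreted follistatin-like protein, was higher, at 350 and 334 CPM in trophectoderm/amnion-like cells, against 157 and 145 CPM in epiblast-like cells, as was the protease gene BMP1 (10.2 and 10.9 CPM, against 6.09 and 4.09 CPM). BMPER, a secreted BMP-binding protein, was lower (23.7 and 17.9 CPM, against 61.5 and 39.6 CPM). The antagonist gene NOG, at 5.18 and 6.24 CPM in trophectoderm/amnion-like cells, against 2.44 and 0.41 CPM in epiblast-like cells, was below the filter for the test.

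Of the 9 other response genes listed, 8 were tested, and 5 were higher and 1 lower. HAND1, a transcription factor of trophoblast and mesoderm, was at 303 and 332 CPM in trophectoderm/amnion-like cells, against 56.6 and 31.9 CPM in epiblast-like cells (log2 fold change 2.98, edgeR adjusted p = 2.24e-08). HEY1 was at 42.9 and 41.8 CPM in trophectoderm/amnion-like cells, against 6.09 and 2.86 CPM in epiblast-like cells. BAMBI, a pseudoreceptor that dampens the signal, was at 210 and 226 CPM in trophectoderm/amnion-like cells, against 93.8 and 97.2 CPM in epiblast-like cells. RUNX2 was higher at 8.65 and 12.4 CPM, against 4.26 and 5.72 CPM. Of the 3 E proteins that ID proteins bind, TCF4 was higher, at 1129 and 1031 CPM in trophectoderm/amnion-like cells, against 452 and 437 CPM in epiblast-like cells (log2 fold change 1.35, edgeR adjusted p = 5.31e-05). TCF3 and TCF12 were not called.

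**Figure D5:**
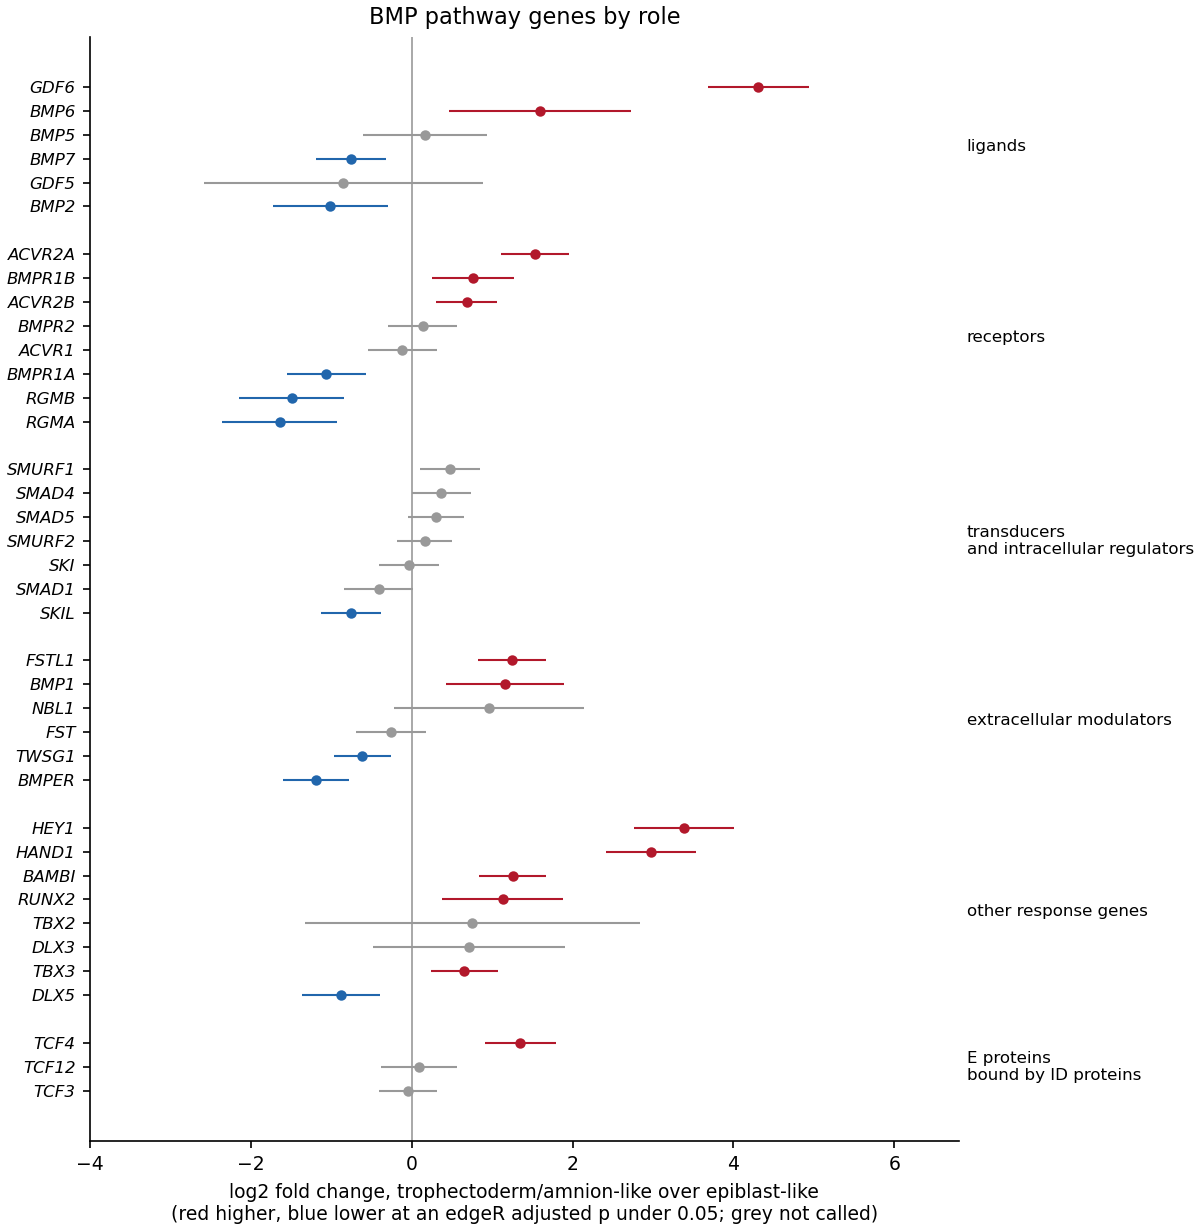
Log2 fold change, trophectoderm/amnion-like over epiblast-like (horizontal axis), of the tested BMP pathway genes reported here, by role, with 95% intervals. Red genes were called higher and blue genes lower by edgeR, and GDF6 is farthest to the right at 4.31.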

How the data were processed

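Per the labels' protocols, droplet 3′ single-cell libraries (Chromium v3.1 chemistry) were made from dissociated blastoids. The tool and build, per the submitters' processing notes, were Cell Ranger 9.0.0 with GRCh38. The authors deposited raw UMI counts per gene and barcode, 1 table per library. Each barcode has at least 200 detected genes and each gene is in at least 2 barcodes.

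Doublets were called with scrublet in scanpy 1.11.5, and the 4 and 3 calls were removed for clustering and class levels. Each UMI was assigned with equal chance to a clustering or a measurement set. Cells were clustered (Leiden, resolution 0.5, 2000 variable genes, 30 components, 15 neighbours) without the BMP genes, mitochondrial and ribosomal protein genes. Clusters were named from marker lists. No name was given to a cluster shallower than 1/3 of its library with no marker of that name leading, to one with fewer than 3 markers at 10 CPM, or where another list had at least 2 more markers among its 10 leading genes. This scoring was chosen after the data were seen, and a difference from the study may come from the rebuilt names. Sub-clusters were called SOX2-high, GATA3-high or TBXT-high as the highest in that gene in the clustering set, among those with at least 10 cells in both libraries.

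Summed UMIs were tested with edgeR 4.0.16 (R 4.3.3; TMM, filterByExpr, library as a block, since the classes lie within the same libraries, threshold 0.05), over all units with at least 20 cells per library (10 for sub-clusters). DESeq2 1.42.0 was an alternative. The SE is the log2 fold change, without its sign, over the square root of F. The 95% intervals of log2 fold changes reach 1.96 SE to either side. This normal multiplier can make them narrower than the F test implies. In a simulated class comparison, trophectoderm/amnion-like over epiblast-like, with 12101 genes tested, the fit found 80 of 100 genes set to 2-fold and 100 of 100 set to 4-fold, with 8 false calls. The changed genes were drawn from those at a mean of 10 CPM or more. All other genes had the same mean level in every unit and library, and the spread followed its trend over genes. Far fewer genes changed than were called in the data, so these figures may not hold for the data. Named pathway genes are up to 4 per list with the largest fold among those called and at 10 CPM or more, and genes of like pattern are the 2 nearest per member. NOG, BMPR2, SMAD1, SMAD4, SMAD5, SMURF1, TCF3 and TCF12 were added after their values were seen. The members and lists were chosen with earlier results of these data known. Some genes that these rules name are not reported here.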

Additional observations from a re-analysis of the deposited data

How the results depend on the processing

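Of the values of single genes under other settings, 322 kept their direction and side of the threshold or moved by less than their spread, 79 moved further, 10 lost a call, 4 gained one and 3 reversed. The reversals all came without the GATA3-high sub-cluster, where ID1 was at 0.75, ID4 at 0.74 and MSX2 at 0.91 (log2 fold change, trophectoderm/amnion-like over epiblast-like), with 4 members called higher and 2 lower. Of all 12926 genes tested there, 2644 were called higher and 2544 lower. ID2 also changed sign there, from -0.34 to 0.16, without being called, and counts among those that moved further. With no filter on low counts 2 members were called lower, and ID4 lost its call (edgeR adjusted p = 0.0508). Of all 25521 genes tested with no filter, 3367 were called higher and 2547 lower. The BMP4 call was lost with the DESeq2 Wald test, another random split, doublets kept, no filter on low counts and without either sub-cluster (adjusted p from 0.0565 to 0.535). With all UMIs, 1003 genes were called in TBXT-high cells, against 647 in the measurement set, and BMP4 was called in GATA3-high cells (edgeR adjusted p = 0.0306). The sum of the 10 members was 907 CPM, 865 to 948 CPM with 1 library left out, and 818 CPM as a mean over cells. Members found in over 50% of cells numbered 0 at 2000 UMIs and 5 without thinning, and pairs above the product numbered 3 at 2000 UMIs. Without the replicate block, 5726 genes were called between the classes, against 5160 with it, and ID3 lost its calls in GATA3-high cells and in cluster 1 (edgeR adjusted p = 0.0578 and 0.0845). The cause of these changes was not tested. Fits with 1 library left out were values with no test. Low-count genes (SMAD7, SMAD9, SMAD6 and MSX1 in small units) are limited by their UMIs.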
